A study of Mus musculus with 9 samples.

Results

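Mmp9, Col11a2 and Vwf are the extracellular matrix genes examined here: a protease that cuts matrix, a fibrillar collagen chain and an adhesive glycoprotein. They were chosen by symbol, with their counts already known to differ between the groups, and are 3 of the 311 genes in the deposited table. The cells were RAW264.7, an established mouse line that grows as macrophages. They had been transfected with mimics of the microRNA let-7c-5p (5 libraries) or were labelled as the negative control (4 libraries), and the labels call the libraries of a group biological replicates. The dose of mimic, the time after transfection and the make-up of the control could not be taken from the labels used here. All libraries come from 1 cell line, so the errors below measure the spread between these cultures.

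MMP-9, also called gelatinase B, is a secreted zinc protease that degrades denatured collagen and basement membrane collagen. Macrophages, neutrophils and osteoclasts release it, and inflammatory signals acting through NF-kappaB and AP-1 induce its gene. Col11a2 encodes a chain of type XI collagen, a minor fibrillar collagen best known from cartilage, where it helps to set the width of collagen fibrils. Von Willebrand factor is a large multimeric glycoprotein, made mainly by endothelial cells and megakaryocytes, that tethers platelets to exposed collagen and carries coagulation factor VIII. A microRNA such as let-7c-5p mostly represses messenger RNAs by pairing its seed, the bases near its 5′ end, with sites in their 3′ untranslated regions (UTRs).

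The transfected microRNA and its seed matches in the transcripts are shown first, because they are the sequences through which the mimic could act on a transcript directly. The mature sequence is from RefSeq (GRCm38.p6), with the seed, bases 2 to 8, in capitals.
let-7c-5p: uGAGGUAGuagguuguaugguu
The DNA letters that pair with this seed were searched on the sense strand of the longest GENCODE M21 transcript of each gene, as CTACCTC (7 bases), as CTACCTCA (8 bases, with the 7-base letters inside) and as TACCTC (the 6 bases shared by both).
The 3′ UTRs of Mmp9 (944 bases), Col11a2 (877 bases) and Vwf (140 bases) held 0 copies even of the 6-base form. For comparison, the 7-base form CTACCTC was present in 8.85% of 20981 mouse genes, in the 3′ UTR of the longest coding transcript. Among the tested genes of the table with such a 3′ UTR, 5.41% of 111 held it. It was present in 6.91%, 6.18% and 0.890% of the 3′ UTRs within 20% of the length of those of Mmp9, Col11a2 and Vwf. Matches of 7 or 8 bases did occur in the coding regions. They are printed in windows of 30 bases, with the match in capitals and its first base counted from the start of the coding region.
Mmp9 coding, base 1272: ccgctgtatagCTACCTCgagggcttccct
Col11a2 coding, base 40: tccttctgttcCTACCTCtggtgctgggtc
Vwf coding, base 2622: ggtatggcccaCTACCTCAccttcgatgga
Vwf coding, base 4365: gagatagtcagCTACCTCtgtgaccttgct
Mmp9 and Vwf each also had 1 match of the 6-base form in their coding regions. Of coding regions within 20% of the length of that of Mmp9, 17.4% held CTACCTC, against 36.3% for Col11a2 and 48.9% for Vwf, whose coding region is the longest at 8442 bases. The coding matches therefore stood in the gene that was lower with the mimic and in both genes that were higher. A match is a description of letters, and binding was not measured here.

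The values below carry 3 limits of the table. Its genes had been preselected on this contrast: in the 299 genes with counts in both groups, the log2 of the mimic mean over the control mean, without scaling, was at most -0.98 or at least 0.98. Column totals were 43241 to 83053 counts in the mimic libraries and 40655 to 50083 in the control libraries, which are sums over the table and not sequencing depths. Gm10123, Gm6061 and Rpl17 together took 48.0% to 71.9% of the mimic totals and 29.3% to 35.7% of the control totals, so the scaling between libraries is uncertain. With column totals in place of trimmed-mean (TMM) scaling, the log2 fold changes of the tested genes shifted by a median of -0.35. With column totals lacking these 3 genes they shifted by a median of 0.42. The share of called genes that were higher with the mimic was 51.4% with TMM, 29.4% with column totals and 64.5% with column totals lacking the 3 genes.

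Mmp9 (ENSMUSG00000017737; chromosome 2 in GENCODE M21), the matrix protease, was lower with the mimic. The deposited counts were 28, 36, 35, 34 and 21 in let-7c-5p replicates 1 to 5, against 58, 78, 57 and 70 in control replicates 1 to 4. Each mimic library lay below each control library, with 36 as the highest mimic and 57 as the lowest control count. The mean was 30.8 ± 6.30 counts with the mimic (SD, n = 5) and 65.8 ± 10.1 counts in the control (SD, n = 4). After TMM scaling, edgeR gave a log2 fold change of -1.18 ± 0.24 (SE), or 2.26-fold lower with the mimic. This is close to the median of the 72 lower tested genes, -1.20, and Mmp9 ranked 42 among them by size. In deposited counts, the coefficient of variation between mimic libraries was 20.5%, near the 18.0% that counting error alone gives at this mean. In the control libraries the values were 15.3% and 12.3%. After TMM scaling the coefficient was 18.6% with the mimic and 23.2% in the control. A bulk count cannot separate fewer Mmp9-expressing cells from less Mmp9 RNA per cell.

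Col11a2 (ENSMUSG00000024330; chromosome 17), the collagen chain, was higher with the mimic and uneven among the mimic libraries. Counts were 149, 96, 143, 137 and 336 in let-7c-5p replicates 1 to 5, against 46, 54, 59 and 60 in the control. Replicate 5 stood far above the other mimic libraries, while the lowest mimic count, 96, was still above the highest control count, 60. The means were 172 ± 93.9 counts with the mimic (SD, n = 5) and 54.8 ± 6.40 counts in the control (SD, n = 4). The log2 fold change was 1.65 ± 0.37 (SE), 3.14-fold, which ranked 4 among the 77 higher tested genes. Without let-7c-5p replicate 5 the mimic mean was 131 ± 24.0 counts (SD, n = 4) and the log2 fold change 1.18 ± 0.22. In deposited counts, the coefficient of variation of Col11a2 with the mimic was 54.5%, against 7.62% from counting error alone. In the control the observed 11.7% was below the 13.5% of counting error. After TMM scaling the coefficient was 69.8% with the mimic and 12.9% in the control.

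Vwf (ENSMUSG00000001930; chromosome 6), the adhesive glycoprotein, had the fewest counts of the 3 genes over the 9 libraries and was higher with the mimic. Counts were 41, 39, 31, 39 and 19 in let-7c-5p replicates 1 to 5, against 17, 12, 15 and 14 in the control. The groups did not overlap, but let-7c-5p replicate 5 came within 2 counts of control replicate 1. At this depth those libraries cannot be told apart, with exact Poisson 95% intervals of 11.4 to 29.7 for the mimic library and 9.90 to 27.2 for the control library, which cover counting error only. Means were 33.8 ± 9.12 counts with the mimic (SD, n = 5) and 14.5 ± 2.08 counts in the control (SD, n = 4). The log2 fold change was 1.11 ± 0.29 (SE), 2.16-fold, beside a median of 1.09 among the higher tested genes. With column totals the value was 0.82 ± 0.39, and the share of the total held by Vwf in let-7c-5p replicate 5, 0.0229%, lay below all 4 control values (0.0257% to 0.0418%).

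**Figure D1:**
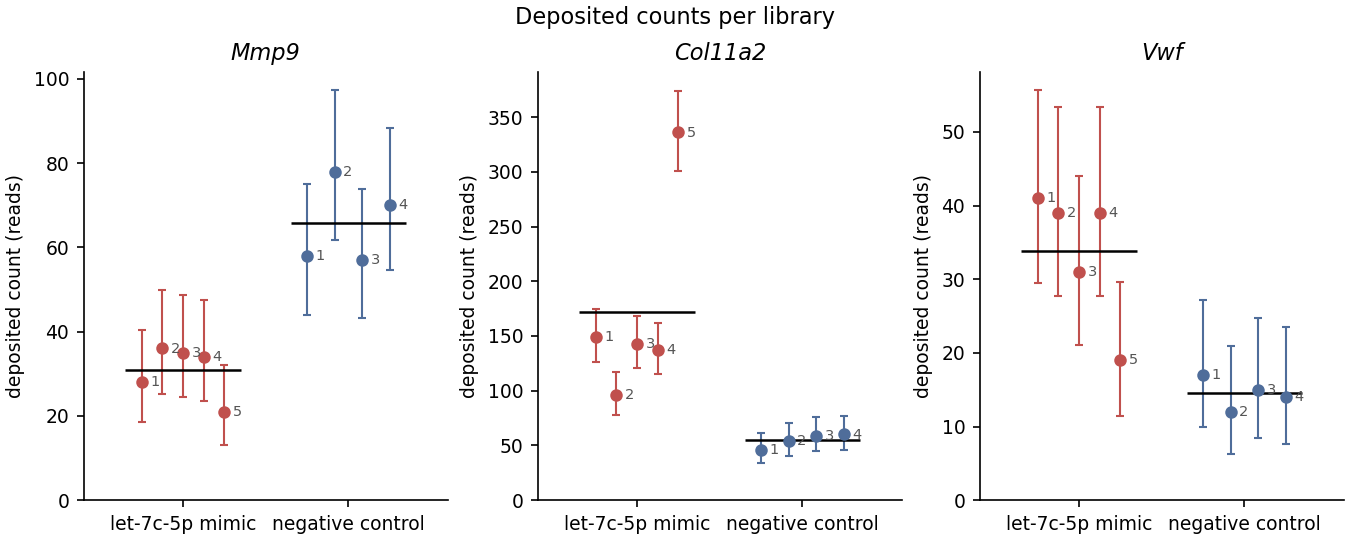
Deposited read counts (y axis, from 0) of Mmp9, Col11a2 and Vwf in each library, with let-7c-5p mimic libraries in red and negative control libraries in blue; digits are replicate numbers, bars are exact Poisson 95% intervals and black lines are group means. Mmp9 lies lower in each mimic library (21 to 36, against 57 to 78 in the control), and Col11a2 (96 to 336, against 46 to 60) and Vwf (19 to 41, against 12 to 17) lie higher.

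Counted together, 3 of 3 genes did not overlap between the groups in deposited counts, where 63.8% of the 149 tested genes did not. With TMM scaling the groups again did not overlap in the 3 genes (background 71.1%), although for Vwf the lowest mimic value was 22.38 and the highest control value 22.35 scaled counts. As shares of the column total, 2 of 3 did not overlap, with Vwf the exception (background 51.7%). EdgeR's quasi-likelihood test called 3 of 3, as it called 99.3% of the tested genes, 51% as higher and 48.3% as lower. Since the genes were chosen on this contrast, these counts describe the selection.

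The protease was set against the structural genes within each library, which needs no scaling between libraries. Mmp9 came from the lower genes of the preselected table, and Col11a2 and Vwf from the higher ones. A fall of both Mmp9 ratios with the mimic was therefore set by this choice, and the values describe only its size. The Mmp9 level per kilobase of transcript was 0.358, 0.714, 0.466, 0.473 and 0.119 times the Col11a2 level in let-7c-5p replicates 1 to 5, against 2.40, 2.75, 1.84 and 2.22 times in control replicates 1 to 4. Mmp9 was therefore below Col11a2 per kilobase in 5 of 5 mimic libraries and above it in 4 of 4 control libraries. On the log2 scale, the ratio of their counts averaged -2.37 ± 0.98 with the mimic (SD, n = 5) and 0.26 ± 0.24 in the control (SD, n = 4), a difference of -2.63 ± 0.45 (SE). As a fold, the Mmp9 to Col11a2 ratio was 6.20 times lower with the mimic. Leaving out let-7c-5p replicate 5, the library with the most Col11a2, the log2 difference was -2.23.

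Mmp9 against Vwf was more even. The Mmp9 level per kilobase was 1.90, 2.57, 3.14, 2.43 and 3.08 times the Vwf level in let-7c-5p replicates 1 to 5, against 9.49, 18.1, 10.6 and 13.9 times in the control libraries. The groups did not overlap, and Mmp9 stayed above Vwf per kilobase in each of the 9 libraries. The log2 count ratio averaged -0.11 ± 0.29 with the mimic (SD, n = 5) and 2.18 ± 0.42 in the control (SD, n = 4). Their difference was -2.29 ± 0.25 (SE), a ratio 4.89 times lower with the mimic. This contrast did not rest on let-7c-5p replicate 5, where both genes had their lowest mimic counts.

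The structural genes, both from the higher side of the table, did not separate from each other in the same way. The log2 ratio of Col11a2 to Vwf counts averaged 2.26 ± 1.10 with the mimic (SD, n = 5) and 1.92 ± 0.33 in the control (SD, n = 4), a difference of 0.34 ± 0.52 (SE). The groups overlapped, from 1.30 to 4.14 with the mimic and from 1.44 to 2.17 in the control. Let-7c-5p replicate 3, at 2.21, and replicate 5, at 4.14, lay above the highest control value. Without replicate 5 the difference was -0.13, so its sign depends on this library.

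**Figure D2:**
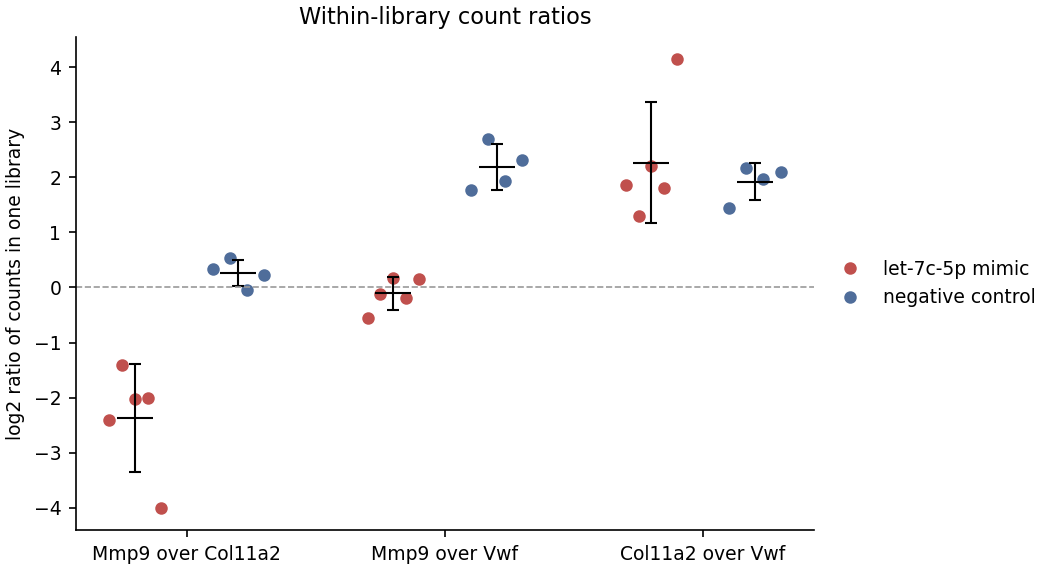
Log2 ratio of the deposited counts of gene pairs within single libraries (y axis), with let-7c-5p mimic libraries in red to the left and negative control libraries in blue to the right of each pair; black bars are means ± SD and the dashed line marks equal counts. Both ratios with Mmp9 on top lie lower in the mimic libraries without overlap, a direction set by the choice of the genes. Col11a2 over Vwf overlaps and has 1 high mimic library (4.14).

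Levels of the genes were ranked only per length, as counts per kilobase of the longest annotated transcript (3175 bases for Mmp9, 6048 for Col11a2 and 8834 for Vwf). Col11a2 had 28.5 ± 15.5 counts per kilobase with the mimic (SD, n = 5) and 9.05 ± 1.06 in the control (SD, n = 4). Mmp9 had 9.70 ± 1.98 counts per kilobase with the mimic and 20.7 ± 3.17 in the control. Vwf had 3.83 ± 1.03 counts per kilobase with the mimic and 1.64 ± 0.24 in the control. The order was Col11a2, Mmp9, Vwf in 5 of 5 mimic libraries and Mmp9, Col11a2, Vwf in 4 of 4 control libraries, and no ranges of neighbours overlapped within a group. The same orders held with the length of all annotated exons joined (3539, 6874 and 16064 bases). The direction in which each gene shifted between the groups was set by the choice of the genes.

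**Figure D3:**
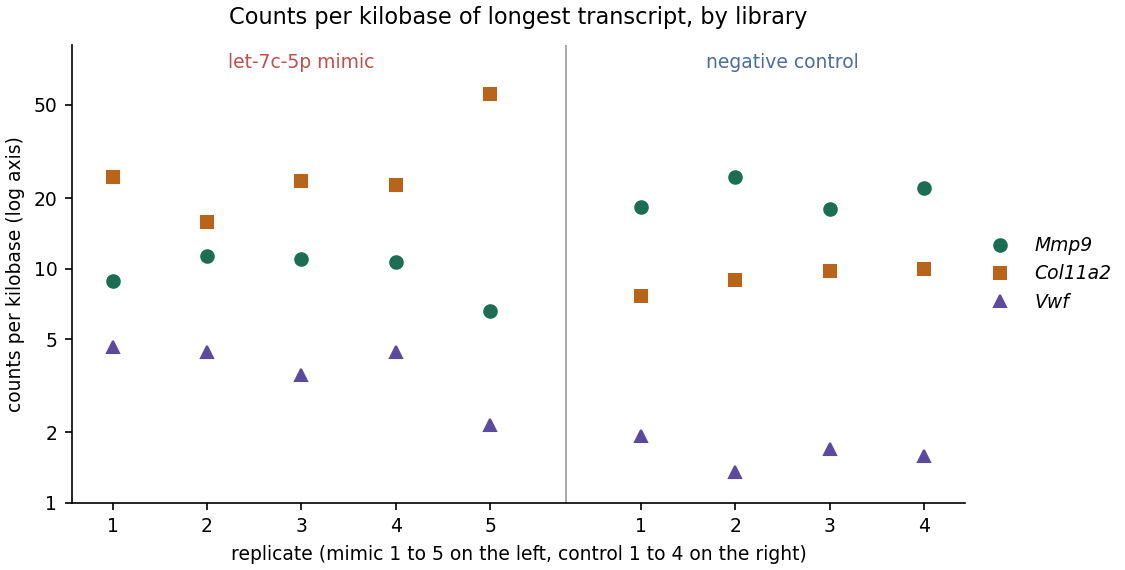
Counts per kilobase of the longest transcript (y axis, log scale) of Mmp9 (circles), Col11a2 (squares) and Vwf (triangles) in each library, let-7c-5p mimic replicates on the left and negative control replicates on the right. Col11a2 lies above Mmp9 in the 5 mimic libraries and below it in the 4 control libraries, and Vwf is lowest in each.

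Let-7c-5p replicate 5 moved these genes in different directions. Relative to the median of the other mimic libraries, and after TMM scaling, its Col11a2 value was 3.19-fold, ranking 5 of the 149 tested genes, while its Vwf and Mmp9 values were 0.645-fold and 0.778-fold. Over the table, this library was the highest mimic library in 33 of the 77 higher genes (42.9%) and the lowest in 33 of the 72 lower genes (45.8%). Col11a2 followed that pattern, with its highest scaled value in replicate 5. Mmp9 had its lowest scaled value there too (24.7), but let-7c-5p replicate 1 was almost as low (24.9). Vwf, a higher gene, was lowest in replicate 5, as were 10 of the 77 higher genes (13.0%). The transcript of Col11a2 was 62.9% G and C, above 95.8% of the 144 tested genes with a matched transcript, against 56.5% for Vwf and 55.2% for Mmp9 (median of the tested genes 51.2%). The part of base composition in these values was not tested.

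Reads shared with other genes were checked in GENCODE M21. The annotation behind the counts is not given, and M21 held a transcript for 144 of the 149 tested genes. Genes outside M21 were therefore not checked. None of the 3 genes overlapped another annotated gene on either strand, and no stretch of 300 bases or more matched a transcript of another gene at 95% identity or above (0 other genes). The nearest alignments of at least 100 bases were to Mmp2 for Mmp9 (71.5% identity) and to Col5a1 for Col11a2 (74.8%), and Vwf had none.

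Other matrix genes were looked up in the table. Of 285 genes in 9 lists of matrix proteases, inhibitors, collagens, collagen-processing enzymes, glycoproteins, proteoglycans and matrix receptors, 8 were present. Mmp9, Col11a2 and Vwf, which were chosen from this table, are among the 8, and 4 of the lists had no gene in the table. Mmp9 was the only 1 of 23 matrix metalloproteinases, and none of 31 ADAM and ADAMTS proteases, 13 other matrix-degrading proteases, 12 protease inhibitors or 31 proteoglycans was present. Genes outside the table were not analysed here, and since the table was selected, their absence gives no level.

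The collagen-related genes present, with the chosen Col11a2 among them, were all higher in mean with the mimic. With no filter, edgeR called 54.7% of the 311 genes of the table higher. Col20a1 (ENSMUSG00000016356), a fibril-associated collagen chain and the other of 44 collagen chains in the table, had 40, 23, 24, 36 and 54 counts in let-7c-5p replicates 1 to 5, against 12, 17, 20 and 12 in the control. The groups did not overlap, and replicate 5 was again the highest mimic library. Its log2 fold change was 1.15 ± 0.35 (SE), and 2 of 2 tested collagen chains were called higher, where 51% of the tested genes were. Col11a2, chosen on this contrast, is 1 of these 2 chains. That call for Col20a1 was lost with column totals (0.71) and without control replicate 4 (0.81). Pcolce (ENSMUSG00000029718), an enhancer of procollagen processing and the only 1 of 24 collagen-processing genes, had 3 to 10 counts with the mimic and 1 to 3 in the control, and was too low to be tested.

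Of 37 integrins and other matrix receptors, 3 were present, and 3 of 3 were called higher with TMM scaling, where 51% of the tested genes were. Itga10 (ENSMUSG00000090210), a collagen-binding integrin chain, had 24 to 58 counts with the mimic (highest in let-7c-5p replicate 5) and 13 to 22 in the control. Its log2 fold change was 0.95 ± 0.35 (SE), and the call was lost with column totals (0.49), by DESeq2 (0.69), and without control replicate 3 (0.76) or control replicate 4 (0.70). Itgax (ENSMUSG00000030789), a leukocyte integrin chain, had 24 to 36 counts with the mimic and 9 to 18 in the control. Cd36 (ENSMUSG00000002944), which binds collagen and thrombospondin besides lipids, had 25 to 50 counts with the mimic and 9 to 22 in the control. The log2 fold changes of Itgax and Cd36 were 1.16 ± 0.27 and 1.03 ± 0.28 (SE), and both calls were lost with column totals (0.80 and 0.62).

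A list of genes known to induce Mmp9, or to bind its product, was also looked up. The table held 4 of its 19 genes, and 3 of them, Tnf, Egr1 and Lcn2, could be tested and were called lower, where 48.3% of the tested genes were. Tnf (ENSMUSG00000024401), the cytokine, had 3413 to 4313 counts with the mimic and 8094 to 10417 in the control. Mmp9 had 8.20, 9.74, 9.02, 7.88 and 5.68 counts for every 1000 Tnf counts in let-7c-5p replicates 1 to 5, against 7.17, 9.02, 6.02 and 6.72 in the control libraries. These ratios overlapped between the groups, with means of 8.11 ± 1.54 with the mimic (SD, n = 5) and 7.23 ± 1.28 in the control (SD, n = 4). Mmp9 and Tnf both came from the lower genes of the preselected table, which made an overlap of their ratios likely. The ratios to Egr1 and Lcn2 below, also lower genes, carry the same limit, and a link between these genes was not tested.

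Egr1 (ENSMUSG00000038418), an immediate early transcription factor, also gave overlapping ratios, with 20.0 to 47.4 Mmp9 counts for every 1000 Egr1 counts with the mimic and 29.5 to 46.7 in the control. Lcn2 (ENSMUSG00000026822), whose human protein forms a complex with MMP-9, had 94.0 ± 58.5 counts with the mimic (SD, n = 5) and 331 ± 70.8 counts in the control (SD, n = 4), without overlap. Its difference, a log2 fold change of -1.96 ± 0.30 (SE), was larger than that of Mmp9. There were 173 to 444 Mmp9 counts for every 1000 Lcn2 counts with the mimic and 183 to 215 in the control, with only let-7c-5p replicate 4 below the control range. Il1b (ENSMUSG00000027398), an inflammatory cytokine, had 3 to 7 counts with the mimic and 6 to 23 in the control, overlapping and too low to be tested.

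Markers of the cell types in which these genes are best known were looked up in the table. For endothelial cells, 2 of 15 markers were present, Vwf and Tie1 (ENSMUSG00000033191), a receptor tyrosine kinase. Tie1 had 3, 2, 7, 4 and 7 counts with the mimic and 1, 2, 1 and 1 in the control, which overlapped. The summed counts of both markers, mostly Vwf, were 26 to 44 with the mimic and 14 to 18 in the control. For platelets and megakaryocytes, 2 of 8 were present, Vwf and Treml1 (ENSMUSG00000023993), a platelet receptor, with summed counts of 42 to 56 with the mimic and 18 to 24 in the control. Treml1 itself overlapped, with 12, 7, 16, 17 and 23 counts with the mimic and 7, 6, 8 and 8 in the control. Both sums include Vwf, which was chosen on this contrast, so their separation partly repeats that choice. The other endothelial and platelet markers were not analysed here, and the part of such cells in the Vwf counts was not tested. Of 12 chondrocyte markers only Col11a2 was present, and of 11 osteoclast markers only Mmp9. None of 14 macrophage markers was present, so the labelled cell type could not be checked.

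The genes with the most similar profile were sought among those with a mean of at least 50 counts, by the root mean square difference of log2 values, centred per gene, over the 9 libraries. Since the table was selected on the group difference, this likeness largely repeats the direction. Nearest to Mmp9, among 48 genes, were Tnfaip3 (0.22), an inhibitor of NF-kappaB signalling, Pou2f2 (0.24), a transcription factor best known from B cells, and Myc (0.25), a growth-promoting transcription factor (median of all candidates 0.60). Nearest to Vwf were Ptgs1 (0.20), the constitutive cyclooxygenase, Gm26542 (0.22) and Cbr2 (0.24), a carbonyl reductase (median 1.21).

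For Col11a2 the nearest genes were less close. They were Ier5l (0.42), an immediate early response gene, Gas6 (0.42), a ligand of TAM receptor kinases, and Fam20c (0.43), a kinase of secreted proteins that act in mineralised matrix (median of 47 genes 1.45). Fam20c had 608, 624, 590, 826 and 901 counts in let-7c-5p replicates 1 to 5, against 342, 322, 326 and 385 in the control. Ier5l had 47, 68, 71, 65 and 131 counts with the mimic, against 39, 32, 24 and 31 in the control. In each of these genes let-7c-5p replicate 5 was the highest mimic library, as in Col11a2. They were picked by likeness over all 9 libraries, replicate 5 included, so this sharing follows from the search.

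**Figure D4:**
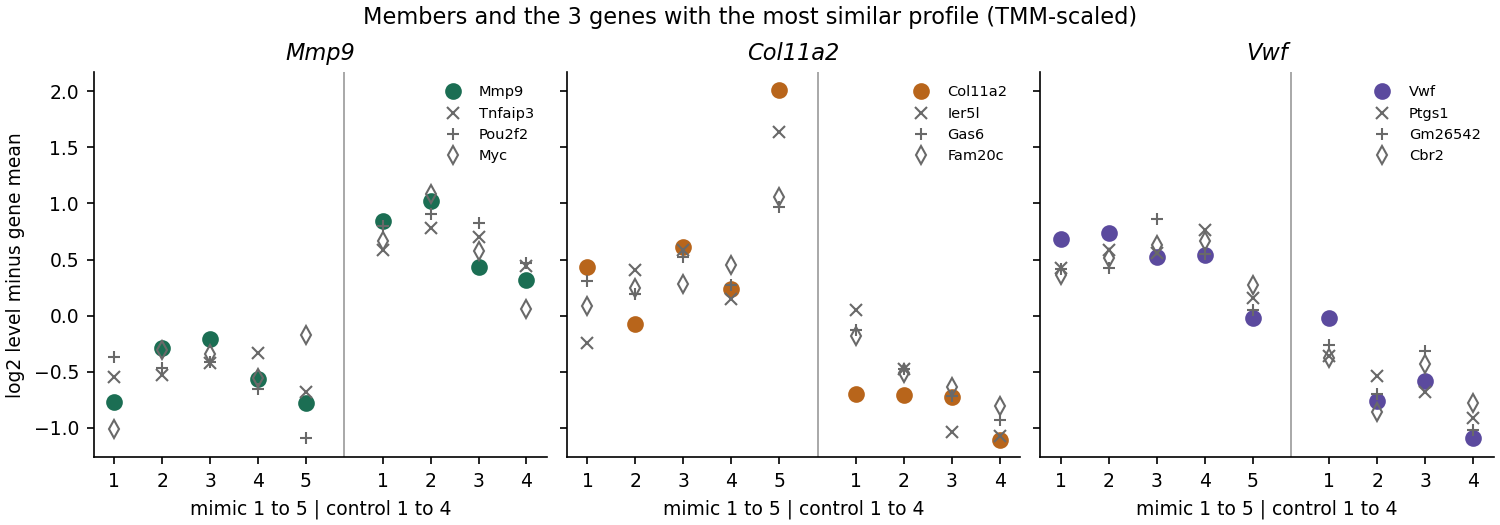
TMM-scaled log2 level minus the gene's mean over the 9 libraries (y axis) for Mmp9, Col11a2 and Vwf (coloured circles) and the 3 genes with the smallest root mean square difference to each (grey symbols); let-7c-5p mimic replicates are left and negative control replicates right of the grey line. Mmp9 and Vwf run close to their nearest genes (0.20 to 0.25), and Col11a2 stands further from its own (0.42 to 0.43).

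The fold changes of the 3 genes were recomputed under other scalings, tools and sets of libraries. The log2 fold change was -1.46 to -0.74 for Mmp9, 1.13 to 2.02 for Col11a2 and 0.82 to 1.56 for Vwf over these settings. Signs were kept in all of them, which the selection of the table for differences of this size made likely.

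**Figure D5:**
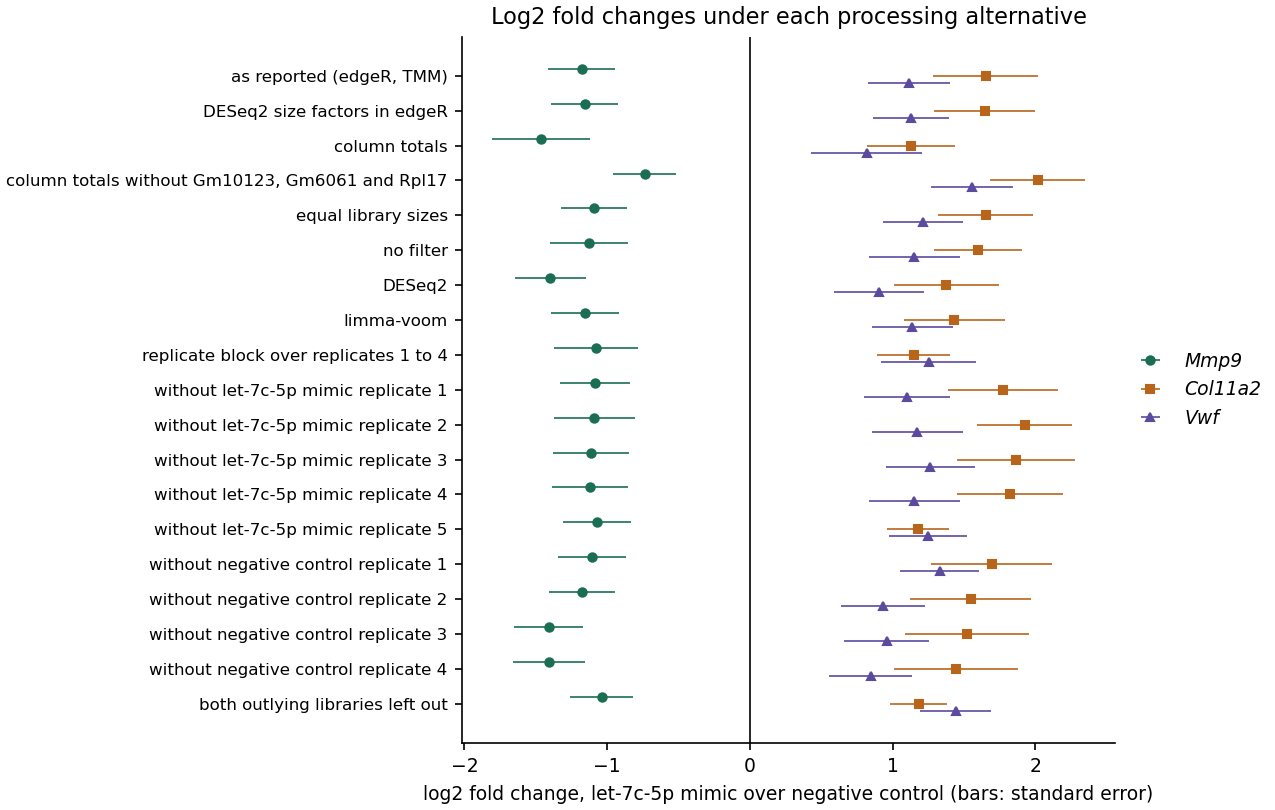
Log2 fold change, let-7c-5p mimic over negative control (x axis, bars are standard errors), of Mmp9 (circles), Col11a2 (squares) and Vwf (triangles) under each processing alternative (rows). Mmp9 stays left of 0 (-1.46 to -0.74), and Col11a2 (1.13 to 2.02) and Vwf (0.82 to 1.56) stay right of it, with Col11a2 lowest with column totals and where let-7c-5p replicate 5 is left out.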

How the data were processed

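RNA sequencing libraries of RAW264.7 cells were grouped by GEO's titles: let-7c-5p mimic (n = 5) and negative control (n = 4). The authors deposited raw read counts per gene, not normalized; per the submitters' processing notes they used FastQC 0.11.9, HISAT2 2.1.0, HTSeq 0.11.2, R 4.3.2 and DESeq2 1.4.2. The build, annotation and strand setting are not given in the labels, so no coordinates are printed. The depth per library is unknown, because the table holds 311 selected genes.

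The members and gene lists were chosen with earlier results of these data known. EdgeR 4.0.16 (R 4.3.3) was fitted to the whole table with TMM scaling, filterByExpr (minimum count 10) and group as the only term; 149 genes were tested with the two-sided quasi-likelihood test, Benjamini-Hochberg adjusted, and called at an adjusted p under 0.05. No p is given for the members, which were chosen on this contrast. Standard errors are the absolute log2 fold change over the square root of F. Ratios between genes used unscaled counts of 1 library. Likeness used log2(CPM + 1) after TMM. The edgeR step was tested on simulated counts in which most genes did not change. The table was selected for change, so that simulation does not test the scaling used here. Sequences and lengths came from GENCODE M21 and RefSeq, and alignments from blastn 2.17.0. Named genes were the members, each listed gene in the table, the 3 genes most like each member, and Gm10123, Gm6061 and Rpl17. Alternatives were other scalings, no filter, DESeq2 1.42.0, limma-voom (limma 3.58.1), the replicate number as a block, other ways to form the ratios, and leaving out libraries. No replicates of a group agreed within sampling noise (chi-square per degree of freedom at least 3.29).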

Additional observations from a re-analysis of the deposited data

Results flagged for a closer look

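Of 58 groups of libraries examined for a library far from the rest of its group, 6 had one. At 1 in 20, chance would give about 2.9 if the groups were independent. They share libraries, the gene counts were not scaled, and Ier5l was included for its likeness to Col11a2. These numbers therefore do not test for an excess. For Col11a2 it was let-7c-5p replicate 5, with 336 counts, against 96 to 149 in the other mimic libraries. The same library was far above the others of its group in Egr1, with 1048 counts (759 to 819 in the others), and in Ier5l, with 131 counts (47 to 71 in the others). Lcn2 had 196 counts in let-7c-5p replicate 4 (48 to 81 in the others). In the control, replicate 2 had 8888 Rpl17 counts (3104 to 4018 in the others) and 2 Tie1 counts (1 in each of the others, a difference of a single read).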

How the results depend on the processing

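For Mmp9, Col11a2, Vwf and their ratios, 88 of 93 alternative values kept their sign and moved by less than the SD between replicates. When Gm10123, Gm6061 and Rpl17 were taken out of the column totals used for scaling, the log2 fold change moved to -0.74 for Mmp9 and 1.56 for Vwf. The log2 difference in the Col11a2 to Vwf ratio reversed without let-7c-5p replicate 5 and with the replicate block, which leaves that library out too (-0.13 each), and without both let-7c-5p replicate 5 and control replicate 1 (-0.29). Leaving out 1 library at a time gave -1.41 to -1.07 for Mmp9, 1.18 to 1.93 for Col11a2 and 0.85 to 1.33 for Vwf. The ratio differences were -2.87 to -2.23 for Mmp9 to Col11a2, -2.42 to -2.11 for Mmp9 to Vwf and -0.13 to 0.59 for Col11a2 to Vwf. Against 148 called genes (76 higher, 72 lower), column totals gave 102 (30 higher, 72 lower) on as many tested genes. No filter gave 311 calls and DESeq2 237, both testing more genes, and leaving out 1 library gave 131 to 164. Of 19 other named genes, 7 lost their call under at least 1 alternative and 0 changed sign. The replicate number as a block gave log2 fold changes of -1.08 for Mmp9, 1.15 for Col11a2 and 1.25 for Vwf; of 4 control libraries, 0 deviated most like the mimic library of the same number, so the numbers were not taken as pairs. Depth limits Mmp9 and Vwf, which had 12 to 78 counts per library. For Vwf the coefficient of variation of deposited counts was 27.0% with the mimic and 14.4% in the control, beside 17.2% and 26.3% from counting error alone. After TMM scaling it was 18.6% with the mimic and 32.7% in the control.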

Other observations

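Some further genes related to the matrix or to adhesion were picked from the table after their values were seen, so they support nothing. Zan (ENSMUSG00000079173) and Muc19 (ENSMUSG00000118670) encode large secreted or membrane proteins that, like von Willebrand factor, hold von Willebrand type D domains. Zan had 28, 14, 21, 13 and 19 counts with the mimic, against 12, 4, 7 and 6 in the control, a log2 fold change of 1.30 ± 0.40 (SE). Muc19 had 20, 30, 15, 13 and 65 counts with the mimic, against 15, 11, 10 and 20 in the control. Its log2 fold change was 1.04 ± 0.50 (SE), and it was the 1 of 149 tested genes that edgeR did not call (adjusted p = 0.053). Its groups overlapped, and let-7c-5p replicate 5 was the highest mimic library, as in Col11a2.

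The coagulation factor genes F7 (ENSMUSG00000031443) and F10 (ENSMUSG00000031444), like Vwf part of blood clotting, were too low to be tested. F7 had 5, 3, 2, 5 and 3 counts with the mimic and 0, 0, 1 and 0 in the control. F10 had 8 to 19 counts with the mimic and 2 to 11 in the control, which overlapped.

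Some protease inhibitors outside the lists were present as well. Cst7 (ENSMUSG00000068129), a cystatin that inhibits lysosomal cysteine proteases, had 705 to 868 counts with the mimic and 338 to 453 in the control. Wfikkn1 (ENSMUSG00000071192), a secreted protein with several protease inhibitor domains, had 24 to 40 counts with the mimic and 13 to 18 in the control. Their log2 fold changes were 0.93 ± 0.24 and 1.01 ± 0.29 (SE). Other genes with serpin or cystatin names went both ways and were too low to be tested. Serpina3h had 0 counts in each mimic library and 1 to 3 in the control, and Cstdc4 had 1 to 6 against 4 to 13. Serpinb1c had 4 to 11 counts with the mimic and 2 to 5 in the control.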
